A study of Mus musculus with 10 samples.

Results

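The 8 genes described here encode complement components and regulators: C1ra, C1s1, C4b, C3, Cfb, Serping1, Cd55 and Cd59a. They were taken by symbol from a table of 23086 genes, and all 8 were found and passed the filter on low values. The table holds RNA-seq of mouse tumours harvested at a size of 500 mm3, which the labels call urothelial tumours of the cell line BBN963, a bladder carcinoma line derived with the carcinogen BBN. There were 5 libraries of genotype ATM-WT (A1 to A5) and 5 of genotype ATM-KO (A11 to A15), and ATM is a kinase that signals DNA breaks. No treatment is named for either group. The labels do not give the host strain, its sex or age, the number of knockout clones, or whether each tumour came from its own animal, so p-values speak only to the spread among the libraries sequenced.

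Complement is a cascade of plasma and tissue proteins that marks surfaces for uptake and can perforate membranes. In the classical pathway C1q binds a target and activates the proteases C1r and C1s, which cleave C4 and C2 into an enzyme that cleaves C3. The alternative pathway makes such an enzyme from C3 and factor B, and regulators stop the cascade in fluid (C1 inhibitor) or on host cells (CD55 and CD59). The liver makes most plasma complement, but fibroblasts, epithelia and macrophages in tissues also transcribe parts of it.

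Levels are normalized counts as the authors deposited them, and they are compared only between libraries and never between genes, because no gene length enters them. Log2 fold changes are ATM-KO minus ATM-WT on log2(value + 1), which understates changes of low genes, with their SE. A change was called where limma's adjusted p (Benjamini-Hochberg over all 16517 genes tested) was under 0.05. Library totals were 20.2 to 22.3 M (mega) normalized counts, and the spacing of low values gave rough depths of 8.84 M reads in A2 and 20.6 to 28.3 M in the rest. A2 and A4, both ATM-WT, had the most genes listed at 0 (4824 and 4266), so results are also given without them. ATM-KO library A12 came next at 3602, against 2225 to 2641 in the rest, and was kept in that fit. The exclusion thus took libraries from the ATM-WT group only. Atm itself did not separate the groups, at 485 ± 183 against 455 ± 139 (SD, n = 5 each, ATM-WT first; limma adjusted p = 0.85). The defining epithelial markers were low in the tumours labelled ATM-KO: all 14 tested fell, and their summed level was 91674 to 261613 in ATM-WT and 2456 to 4198 in ATM-KO.

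The promoters of C1ra, C1s1 and C3 are shown because these were the members called lower in ATM-KO. Each is the RefSeq window of 300 bases (250 before and 50 after the annotated start, GRCm38.p6), printed 5′ to 3′ along the gene. For C1s1 2 windows were listed, and only the first was used. C1ra lies on the plus strand at chr6:124512371-124512670, C1s1 on the minus strand at chr6:124542310-124542609 and C3 on the minus strand at chr17:57228087-57228386. Capitals mark exact matches, on either strand, to TTCNNNGAA (interferon gamma activated site), to TTGCNNAA (C/EBP), to the core of the interferon-stimulated response element (GAAA, any 2 bases, GAAA) or to an NF-kB motif (GGG, any 2 bases, TTTCC). No match overlaps another.
C1ra: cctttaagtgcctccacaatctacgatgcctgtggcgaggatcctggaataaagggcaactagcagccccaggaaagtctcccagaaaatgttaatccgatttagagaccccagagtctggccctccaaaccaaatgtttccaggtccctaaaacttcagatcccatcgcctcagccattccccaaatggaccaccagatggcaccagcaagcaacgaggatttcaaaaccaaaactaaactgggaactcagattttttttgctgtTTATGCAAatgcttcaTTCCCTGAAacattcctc
C1s1: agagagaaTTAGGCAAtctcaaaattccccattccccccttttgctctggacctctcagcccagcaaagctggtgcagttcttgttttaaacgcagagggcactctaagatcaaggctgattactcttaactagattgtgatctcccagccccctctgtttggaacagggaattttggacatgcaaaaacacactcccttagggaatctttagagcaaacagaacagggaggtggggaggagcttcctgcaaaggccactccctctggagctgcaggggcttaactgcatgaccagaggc
C3: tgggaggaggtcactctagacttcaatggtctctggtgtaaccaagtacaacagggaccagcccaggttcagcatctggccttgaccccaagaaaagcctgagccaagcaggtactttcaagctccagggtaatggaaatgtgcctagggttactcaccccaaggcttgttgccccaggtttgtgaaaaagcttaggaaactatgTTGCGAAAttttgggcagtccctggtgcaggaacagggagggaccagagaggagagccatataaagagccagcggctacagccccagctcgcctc
The C3 window holds 1 C/EBP match, TTGCGAAA, with its first base at -45 from the start. The C1s1 window holds 1 C/EBP match, TTAGGCAA as printed and matching on the opposite strand, at -242. The C1ra window holds a C/EBP match on the opposite strand, TTATGCAA as printed, at 17 and an interferon gamma activated site match, TTCCCTGAA, at 33, both after the start. Of 27025 promoter windows in the table, 1 a gene, 10.8% hold the C/EBP letters, 8.47% the interferon gamma activated site, 3.49% the response element core and 1.62% the NF-kB letters. Windows were matched for 5 of the 8 members. Among these, Cd59a holds 1 match to the response element core, GAAAGGGAAA at -187, and Cd55 holds no match to the 4 motifs. A match is a description of letters and not of binding. By RefSeq gene order C1ra and C1s1 are neighbours on chromosome 6.

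The genes of the C1 proteases were lower in every ATM-KO library than in any ATM-WT library, and C3 overlapped through 1 ATM-WT library, while Cfb and Serping1 stayed at overlapping levels. Of the 8 members, 3 fell (C1ra, C1s1 and C3), 0 rose and 5 were not called, where 46.4% of all genes tested were called, 24.3% lower and 22.1% higher. The groups did not overlap for 2 members, C1ra and C1s1, both lower, where 35.2% of all genes did not overlap and 18.2% did so with ATM-KO lower. The members' median log2 fold change was -1.14, against 0.00467 over all genes tested. In bulk tumours, fewer cells of a type and less RNA per cell cannot be told apart.

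**Figure D1:**
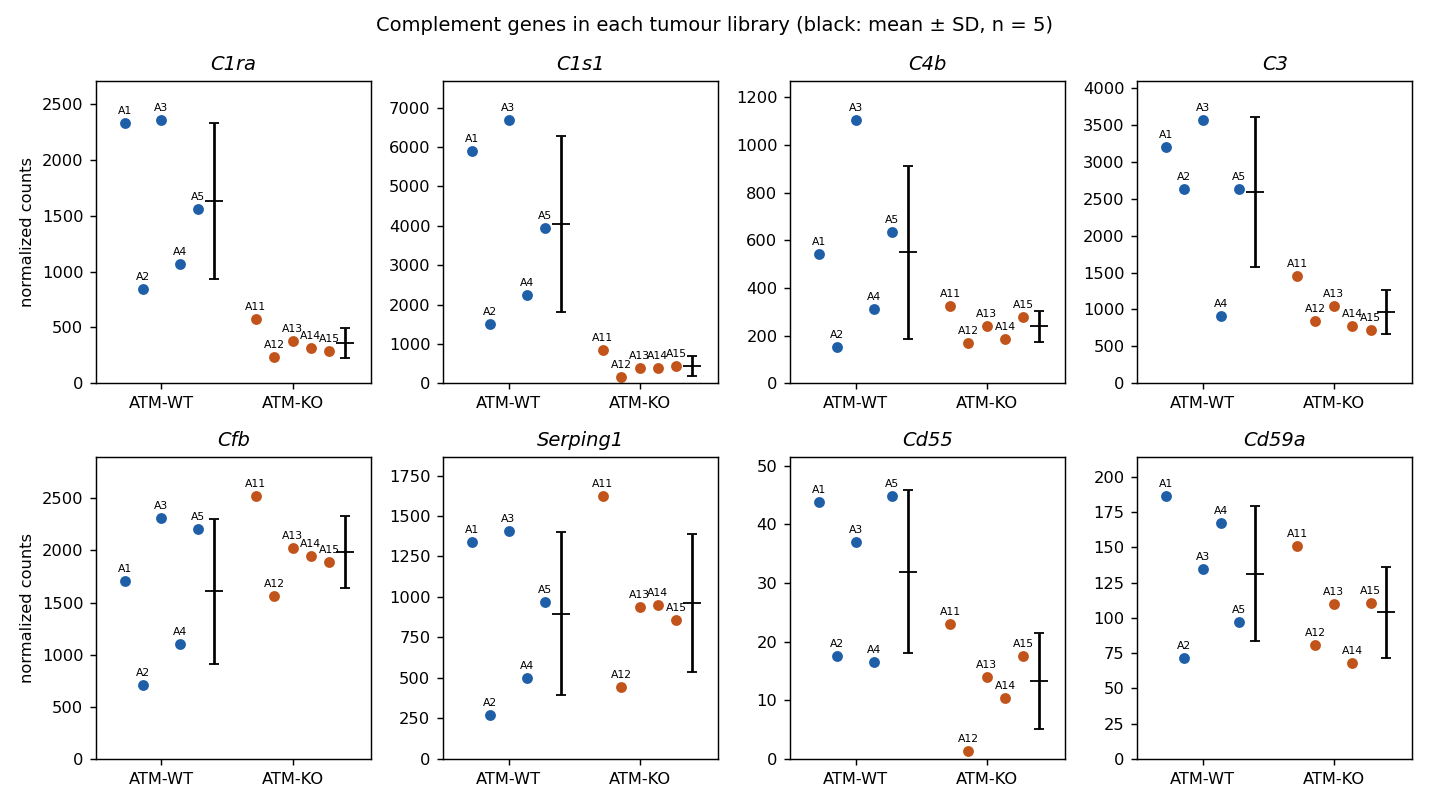
Normalized counts (vertical axis, from 0) of the 8 members in each of the 5 ATM-WT (blue) and 5 ATM-KO (orange) libraries, with the mean and SD in black. C1ra and C1s1 separate the genotypes, the ATM-WT libraries A2 and A4 sit low in most panels, and ATM-KO library A12 sits low for Serping1 and Cd55.

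C1s1, which encodes the protease that cleaves C4 and C2, had the largest difference of the 8. It stood at 5897, 1516, 6677, 2248 and 3939.8 normalized counts in ATM-WT libraries A1 to A5. In ATM-KO libraries A11 to A15 it stood at 848, 163, 393, 379.8 and 433. The highest ATM-KO library was thus below the lowest ATM-WT library, A2. C1s1 fell from 4056 ± 2236 to 443 ± 249.6 (SD, n = 5 each), a log2 fold change of -3.17 ± 0.45, or 8.98-fold lower (95% interval -4.15 to -2.18, limma adjusted p = 1.08e-04). The exact two-sided permutation test over all 252 splits gave p = 0.0079, the smallest it can give. In the GENCODE M21 transcripts, 7.9% of the 100-base windows of C1s1 also occur in the nearby copy C1s2, whose mean was 10.8 in the ATM-WT group and 1.22 in the ATM-KO group.

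C1ra encodes C1r, the protease that activates C1s. Its levels were 2334, 845, 2354, 1064 and 1564 in ATM-WT libraries A1 to A5, and 578, 237, 379.7, 317 and 289 in ATM-KO libraries A11 to A15. As for C1s1, A2 was the lowest ATM-WT library and A11 the highest ATM-KO library, without overlap. C1ra fell from 1632 ± 700.2 to 360.3 ± 132, a log2 fold change of -2.13 ± 0.31, or 4.37-fold lower (95% interval -2.79 to -1.46, limma adjusted p = 1.16e-04, exact permutation p = 0.0079). Of the 100-base windows of the C1ra transcript, 34.5% also occur in its copy C1rb, so reads of the pair may have been shared and the C1ra level is uncertain to that extent. C1rb was not analysed here.

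The log2 ratio of C1s1 to C1ra was 1.22 ± 0.26 in ATM-WT (0.84 to 1.504) and 0.18 ± 0.46 in ATM-KO (-0.54 to 0.58), and the groups did not overlap. It is a description, with no test, and its own size has no meaning without gene lengths.

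C4b encodes C4, the substrate of C1s. It stood at 544, 153, 1103, 313 and 635 in ATM-WT libraries A1 to A5 and at 326, 167, 241, 185 and 279 in ATM-KO libraries A11 to A15. ATM-WT ran from below the lowest to far above the highest ATM-KO library, and A2 was its lowest library, at an estimated 62.5 reads. Group means were 549.6 ± 363 and 239.6 ± 65.5, and the log2 fold change of -0.95 ± 0.43 was not called (95% interval -1.88 to -0.02, limma adjusted p = 0.088, exact permutation p = 0.11). Without ATM-WT libraries A2 and A4 the change was -1.64 ± 0.27 and was called (limma adjusted p = 5.17e-04), and without A2 alone it was -1.33 (limma adjusted p = 0.0045). Windows shared with the near copy C4a made up 16.5% of the C4b transcript. C4a fell from 54.2 ± 38.9 to 15.8 ± 6.40 (-1.51 ± 0.50, limma adjusted p = 0.026), and reads of the pair may have been split.

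C3 encodes the central component on which all pathways converge. Its levels were 3201, 2633, 3562, 908 and 2633 in ATM-WT libraries A1 to A5, and 1449, 842, 1048, 777 and 715 in ATM-KO libraries A11 to A15. Only ATM-WT library A4 lay within the ATM-KO range, and the other 4 were above it. C3 fell from 2587 ± 1018 to 966 ± 298, a log2 fold change of -1.33 ± 0.33, or 2.52-fold lower (95% interval -2.04 to -0.62, limma adjusted p = 0.0050, exact permutation p = 0.024). Without A2 and A4 the change was -1.73 ± 0.21.

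Cfb encodes factor B, the protease that joins C3 in the alternative pathway enzyme. It stood at 1703, 710.1, 2310.4, 1105 and 2208 in ATM-WT libraries A1 to A5 and at 2521, 1564, 2021, 1946 and 1892 in ATM-KO libraries A11 to A15. The ATM-KO values lay close together, near the upper ATM-WT values, and A2 and A4 were below all of them. Group means were 1607 ± 693 and 1989 ± 345, and the log2 fold change of 0.42 ± 0.28 was not called (95% interval -0.19 to 1.03, limma adjusted p = 0.24, exact permutation p = 0.29). Without A2 and A4 it was -0.065 ± 0.15. The log2 ratio of Cfb to C3 was -0.68 ± 0.81 in ATM-WT (-1.89 to 0.28) and 1.07 ± 0.27 in ATM-KO (0.80 to 1.40), without overlap.

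Serping1 encodes C1 inhibitor, the serpin that inactivates C1r and C1s. It stood at 1337, 269.6, 1409.8, 499 and 969 in ATM-WT libraries A1 to A5 and at 1623, 442, 940.2, 949.5 and 857 in ATM-KO libraries A11 to A15. Both groups covered much the same span, with the highest library 5.23 times the lowest in ATM-WT and 3.67 times in ATM-KO. Group means were 897 ± 503 and 962 ± 424, and the log2 fold change of 0.23 ± 0.45 was not called (95% interval -0.73 to 1.20, limma adjusted p = 0.70, exact permutation p = 0.67). The sign turned without A2 and A4, at -0.46 ± 0.32 (limma adjusted p = 0.26), and without A2 alone, at -0.14.

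Within each genotype, C1s1 and Serping1 kept a narrow ratio although both varied several-fold. The log2 ratio of C1s1 to Serping1 was 2.14, 2.49, 2.24, 2.17 and 2.02 in ATM-WT libraries A1 to A5. In ATM-KO libraries A11 to A15 it was -0.93, -1.43, -1.26, -1.32 and -0.98. The 2 sets lay far apart, at 2.21 ± 0.17 and -1.19 ± 0.22, a difference of -3.40. This includes A2, A4 and A12, the libraries in which both genes were low. The ratio of C4b to Serping1 also differed without overlap, at -0.75 ± 0.35 in ATM-WT (-1.30 to -0.35) and -1.93 ± 0.42 in ATM-KO (-2.35 to -1.40). These ratios were given as descriptions, with no test.

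**Figure D2:**
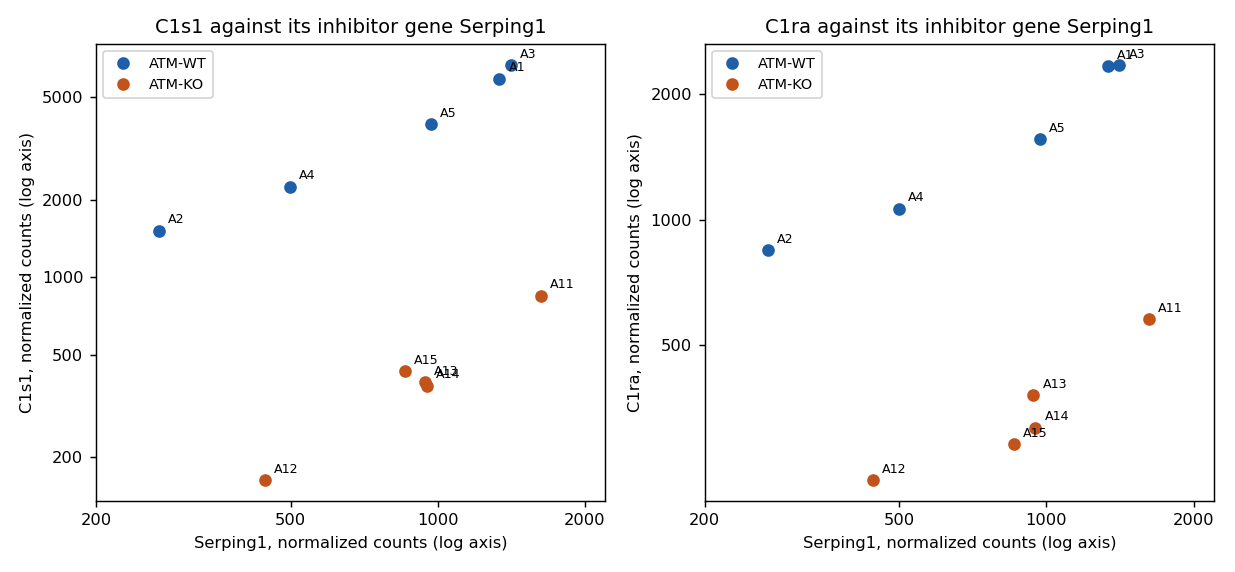
Normalized counts of C1s1 (left) and C1ra (right) against Serping1 on log axes, 1 point a library, ATM-WT blue and ATM-KO orange. In each genotype the protease genes are broadly high where Serping1 is high, and at similar Serping1 levels (ATM-WT A5 at 969, ATM-KO A14 at 949.5) C1s1 stood at 3939.8 and 379.8.

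The membrane regulators rested on the fewest reads. Cd55, which encodes the factor that dissociates C3-cleaving enzymes on host cells, stood at 43.7, 17.5, 37.0, 16.5 and 44.8 in ATM-WT libraries A1 to A5. In ATM-KO libraries A11 to A15 it stood at 23.1, 1.32, 13.9, 10.4 and 17.6. The groups overlapped through A2 and A4, and the value of A12 rests on about 1.42 estimated reads. Group means were 31.9 ± 13.9 and 13.2 ± 8.15, and the log2 fold change of -1.43 ± 0.64 was not called (95% interval -2.81 to -0.05, limma adjusted p = 0.083, exact permutation p = 0.056). Without A12 the change was -0.87 ± 0.47 (limma adjusted p = 0.17), and without A2 and A4 it was called at -1.93 ± 0.69 (limma adjusted p = 0.038). Windows shared with the copy Cd55b, which was not analysed here, made up 5.5% of the transcript.

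Cd59a, which encodes the inhibitor of the membrane attack complex, stood at 186, 71.3, 134, 167 and 97.3 in ATM-WT libraries A1 to A5. In ATM-KO libraries A11 to A15 it stood at 151, 80.4, 109.7, 67.9 and 110.2. The groups overlapped almost fully. Group means were 131 ± 47.6 and 104 ± 32.2, and the log2 fold change of -0.31 ± 0.31 was not called (95% interval -0.98 to 0.37, limma adjusted p = 0.45, exact permutation p = 0.37), and after quantile normalization it was 0.17, where the median of all genes moved to 0.15. The log2 ratio of Cd59a to Cd55 overlapped between groups (1.10 to 3.26 in ATM-WT, 2.58 to 5.14 in ATM-KO), as did that of C3 to Cd55 (5.70 to 7.15 and 5.27 to 8.51).

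Dropping A2 and A4 from the ATM-WT group changed how many members were called. In that fit 5 of the 8 fell (C1ra, C1s1, C3, C4b and Cd55) and 0 rose, where 24.5% of all genes tested were lower and 23.5% higher. C1s1 was -3.78 ± 0.40 and C1ra -2.57 ± 0.26. Cfb, Serping1 and Cd59a were not called in either. That fit kept A12, the lowest ATM-KO library for C4b, Cfb, C1ra, C1s1, Serping1 and Cd55. With A12 alone left out, C4b was -0.83 and Cd55 -0.87, neither of them called.

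**Figure D3:**
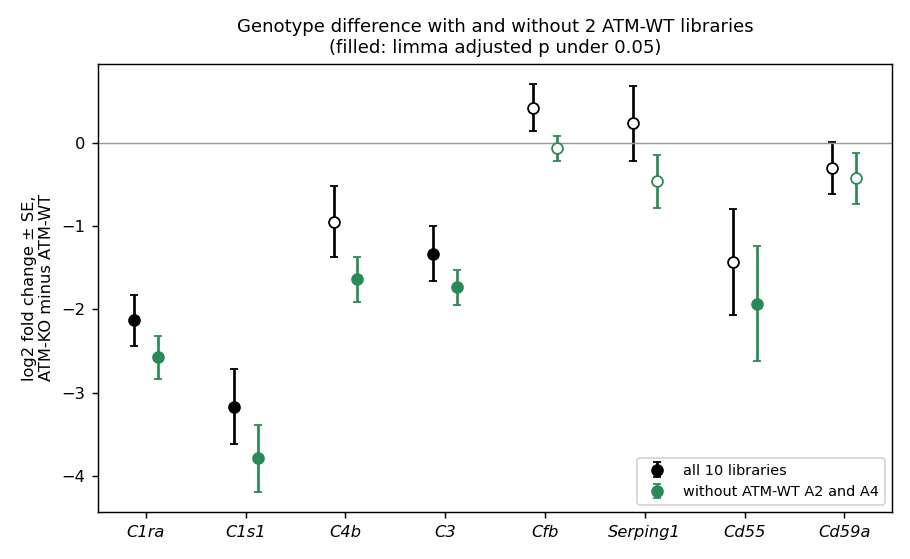
Log2 fold change with its SE (vertical axis) of each member, over all 10 libraries (black) and without ATM-WT libraries A2 and A4 (green); filled points had limma adjusted p under 0.05. C4b moved from -0.95 to -1.64 and Cd55 from -1.43 to -1.93 and became called, and Serping1 changed sign from 0.23 to -0.46 without a call in either fit.

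The members also varied together within genotypes. With each genotype's mean removed from the log2 values, Pearson's r over the 10 libraries was above 0.8 in 11 of 28 pairs, highest for C1s1 with Serping1 (0.97), and 0.96 for C1ra with Serping1 and for C4b with Cfb. C3 with Cd59a was lowest, at 0.03. These r are descriptions of the same 10 libraries, which share differences in depth and in cell content. Among 13347 other genes with a mean of at least 50, the most alike to C1s1 were Thbs2 (0.98), Serping1 (0.97) and Lrrc15 (0.96), and to Serping1 they were Lox (0.98), C1s1 (0.97) and Acta2 (0.97). Thbs2 and Lox encode matrix proteins and Acta2 smooth muscle actin. For C1ra they were Limd2 (0.98), Svep1 (0.97) and Tnfrsf1b (0.96), for C4b Tceal1 (0.98), Cd37 (0.97) and Gnpda1 (0.96), and for Cfb Pear1 (0.99), Cd52 (0.97) and Rcsd1 (0.97). For C3 they were Zfp324 (0.95), Gjb5 (0.94) and Ucp2 (0.94). For Cd55 they were Igdcc4 (0.95), Slc37a2 (0.95) and Gm45714 (0.94), and for Cd59a Arhgap1, Entpd7 and Hdac4 (each 0.94).

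Fibroblast markers were mostly lower in ATM-KO. Of 14 tested fibroblast markers 0 rose and 12 fell (median -2.02), and their summed level was 164495 to 589935 in ATM-WT and 38409 to 111138 in ATM-KO, with no marker listed at 0 throughout a group. The sum was lowest in A2 and highest in A3 among ATM-WT, and lowest in A12 and highest in A11 among ATM-KO, and 5 members (C4b, Cfb, C1ra, C1s1 and Serping1) had the same lowest and highest libraries in both genotypes. C3, Cd55 and Cd59a did not share all of these libraries. The sum did not overlap between genotypes, whereas C4b, Cfb and Serping1 did. Dpt, a dermal matrix gene of fibroblasts, (log2 fold change -5.07), and the collagen gene Col3a1 (-2.51) were among those that fell. Thy1 (-0.07 ± 0.26) and Pdgfrb (-0.32 ± 0.20) were not called, though Pdgfrb was without A2 and A4 (-0.59). Col3a1, Col1a1 and Col1a2 had by far the highest means of the list, so the fibroblast sum follows mostly collagen RNA. Macrophage markers summed to 23547 to 59893 in ATM-WT, lowest in A2 and highest in A3. In ATM-KO they summed to 38450.2 to 54766, lowest in A14 and highest in A11. Of the 14, 3 were higher and 1 lower (1 and 3 without A2 and A4). The epithelial sum, given above, ran the opposite way within genotypes. It was highest in A2 and lowest in A3 among ATM-WT, and highest in A12 and lowest in A11 among ATM-KO. The part of these cell types in the complement results was not tested.

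Other cell type lists gave further background. Endothelial markers gave 0 higher and 1 lower of 10 tested, dendritic cell markers 5 higher and 0 lower of 9, mast cell markers 0 and 7 of 7, and neutrophil markers 0 and 4 of 5. Red blood cells, which carry CD59 and CD55 in mice, had 4 of 5 markers higher and 0 lower (1 and 0 without A2 and A4), with sums of 517 to 964 and 650.1 to 1983. Hepatocytes are the main source of plasma complement, and of their markers 3 were tested, 0 higher and 2 lower, with Alb at means of 2.75 and 0.859 and Ttr listed at 0 in all ATM-KO libraries. Skeletal muscle markers gave 0 and 0 of 9 and adipocyte markers 0 and 1 of 5. The muscle sum was 2620 in A3 and at most 162 in the other ATM-WT libraries. In ATM-KO it ran from 118 in A15 to 1547.5 in A11. A3 and A11 were also the libraries highest for fibroblast markers.

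Over the whole complement system, 40 of 53 listed genes in the table were tested, of which 8 rose and 10 fell, with a median of -0.17 (7 and 14, and -0.50, without A2 and A4). Without the 8 members, 8 rose and 7 fell of 32, with a median of -0.0082 (7 and 9, and -0.30, without A2 and A4). Of all genes tested, 22.1% rose and 24.3% fell, and 23.5% and 24.5% without A2 and A4.

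In the classical pathway, the C1q genes were not called. C1qa, which with C1qb and C1qc encodes the recognition part of C1 and is mainly a macrophage gene, stood at 5829 ± 2783 in the ATM-WT group and 8218 ± 1066 in the ATM-KO group (0.64 ± 0.29, limma adjusted p = 0.094). C1qb (0.52 ± 0.27) and C1qc (0.48 ± 0.24) were not called either, and without A2 and A4 the 3 stood at 0.11, 0.05 and 0.06. C2, the other substrate of C1s, averaged 174 ± 85.6 and 127 ± 54.5 and was not called (-0.29 ± 0.52, and -0.88 without A2 and A4, limma adjusted p = 0.065). Among lectin pathway genes Masp1, which encodes a protease related to C1r and C1s, fell from 616 ± 274 to 176 ± 48.6 (-1.74 ± 0.30, limma adjusted p = 4.37e-04) without overlap. Colec12, a scavenger receptor with a collectin domain, rose from 1235 ± 477 to 2102 ± 257 (0.85 ± 0.23, limma adjusted p = 0.0097). Its rise without A2 and A4 was 0.56 (limma adjusted p = 0.029).

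In the alternative pathway, Cfp, which encodes the stabilizer properdin, was not called (700.4 ± 244 and 834 ± 86.6). Cfd encodes factor D, the protease that cleaves factor B and a product of fat cells. It was listed at 0 in ATM-WT libraries A1, A2, A4 and A5 and at 223 in A3, and stood at 142, 168, 14.9, 19.2 and 113 in ATM-KO libraries A11 to A15. It was called higher (4.38 ± 1.43 on the log2(value + 1) scale, limma adjusted p = 0.024), with 4 of 5 ATM-WT values at 0. Without A2 and A4 the difference was 3.34 and not called (limma adjusted p = 0.11). Adipocyte markers summed to 1285 to 1971 in ATM-WT and 890.4 to 1029 in ATM-KO. Of the terminal pathway 3 genes were tested and 0 called: Hc (C5) averaged 82.8 and 41.6, C6 18.4 and 31.2, and C8g 18.5 and 16.4.

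Soluble regulators other than Serping1 went both ways. Clu, which encodes clusterin, a chaperone that also blocks the membrane attack complex, rose from 16738 ± 7555 to 42790 ± 6789 (SD, n = 5 each; 1.45 ± 0.26, limma adjusted p = 5.50e-04). It was higher in every ATM-KO library (at least 31867) than in any ATM-WT library (at most 27414). Susd4, a membrane or secreted inhibitor, fell from 303 ± 189 to 39.96 ± 14.1 (-2.73 ± 0.43, limma adjusted p = 2.16e-04), and Cfi, the protease that inactivates C3 and C4 fragments, from 22.5 ± 10.4 to 5.91 ± 5.45 (-1.92 ± 0.59, limma adjusted p = 0.018). Of 5 tested membrane regulators 1 rose and 0 fell. The riser was Cr1l, which encodes Crry, a rodent regulator of C3-cleaving enzymes, from 709.9 ± 76.2 to 884 ± 55.1 (0.32 ± 0.11, limma adjusted p = 0.025). Of the membrane regulators below a mean of 100, Cd46 averaged 37.5 and 24.9 and was not called.

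**Figure D4:**
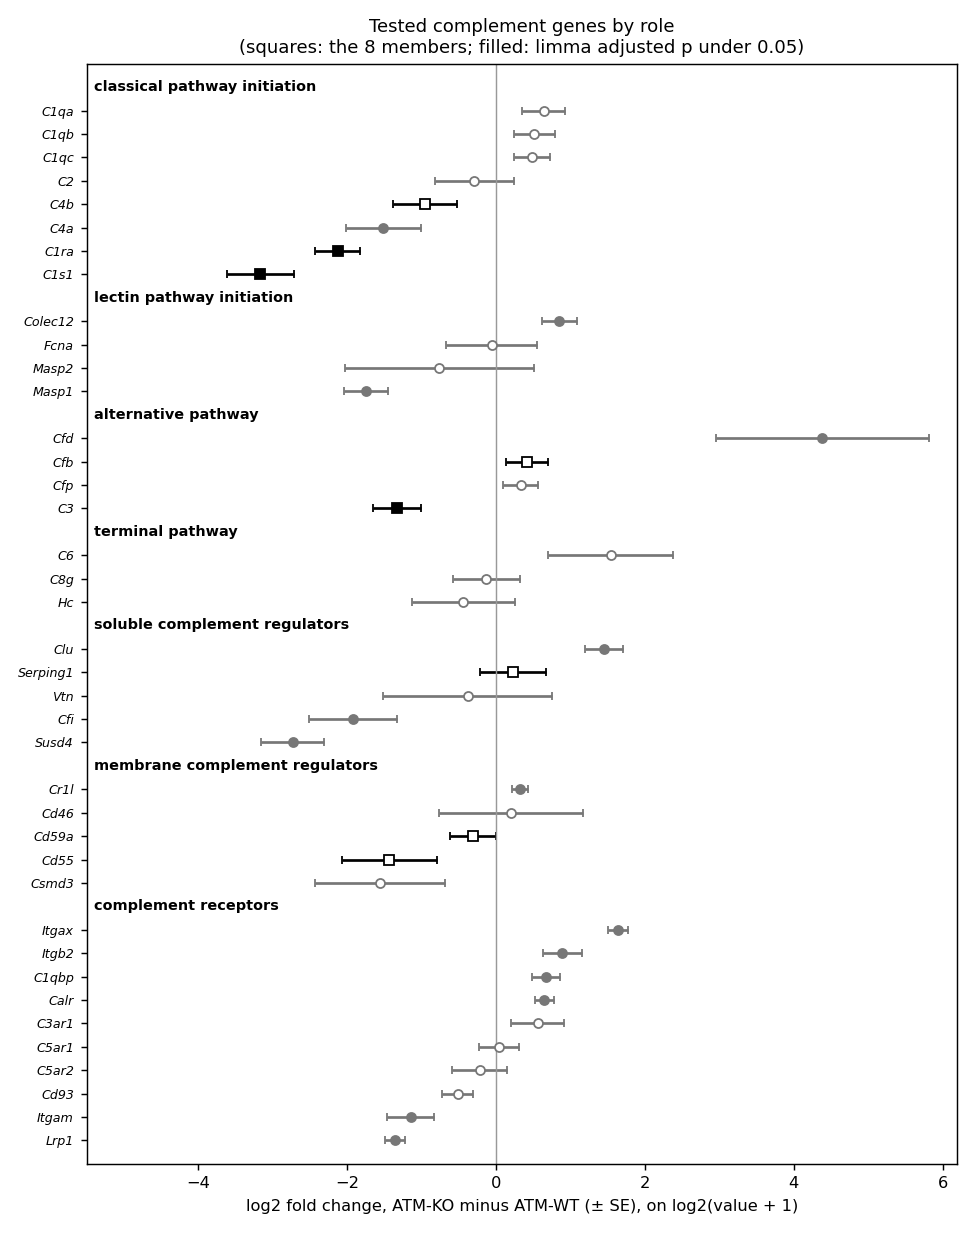
Log2 fold change with its SE (horizontal axis) of the tested complement genes, grouped by role, with 1 gene not shown; squares are the 8 members and filled symbols had limma adjusted p under 0.05. The genes lie on both sides of 0 in most groups, with C1s1 (-3.17) and Susd4 (-2.73) farthest to the left and Cfd farthest to the right.

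Among receptors 4 of 10 tested genes rose and 2 fell (4 and 3 without A2 and A4, when Cd93 was also lower). The integrin chain genes of the C3 fragment receptors split: Itgax rose from 857 ± 154 to 2657 ± 367 (1.64 ± 0.14, limma adjusted p = 1.87e-06) and Itgb2 from 932 ± 399 to 1606 ± 238 (0.89 ± 0.26, limma adjusted p = 0.014), while Itgam fell from 794 ± 261 to 369 ± 164 (-1.15 ± 0.32, limma adjusted p = 0.0099). Itgax is also a dendritic cell marker. Genes of C1q-binding proteins rose, C1qbp by 0.67 ± 0.19 and Calr by 0.65 ± 0.13, and the endocytic receptor gene Lrp1 fell (-1.35 ± 0.13). The anaphylatoxin receptor genes C3ar1 (0.56 ± 0.35), C5ar1 (0.04 ± 0.27) and C5ar2 (-0.22 ± 0.37) were not called, nor was Cd93 (-0.51 ± 0.21). Without A2 and A4 the anaphylatoxin receptor genes stood at -0.09, -0.38 and -0.54, again not called. In the same fit Itgax stood at 1.47, Itgb2 at 0.43 (limma adjusted p = 0.034) and Itgam at -1.53.

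Of 21 genes for signals and factors known to induce complement genes, 2 rose and 7 fell, with a median of -0.065 (0 and 8 without A2 and A4). These are 9.52% and 33.3%, where 22.1% of all genes tested rose and 24.3% fell. The risers were Jak1 (0.45 ± 0.14) and Il6ra (0.65 ± 0.20). Osmr, a receptor for oncostatin M, fell from 1843 ± 108 to 889 ± 96.9, and Il1r1, the interleukin-1 receptor, from 1043 ± 176 to 504 ± 62.5. Ifngr1, a chain of the interferon gamma receptor, fell from 1692 ± 283 to 1145 ± 134, and the C/EBP factor gene Cebpb from 4621 ± 669 to 2906 ± 501. All 4 passed at limma adjusted p of at most 0.0035, and they were named because they had the smallest p of the list. Their part in the levels of the complement genes was not tested.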

How the data were processed

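Tumours of 5 ATM-WT and 5 ATM-KO libraries were compared. The values are normalized counts (a signal, at or above 0) in the single table the authors deposited. Column headers give the genotype plus a library number found in no label, so columns were assigned to groups only. STAR, Salmon and DESeq2 are named, per the submitters' processing notes, without versions or roles. The genome build and gene models are not given in the sources used for this work. Of the values of up to 20 estimated reads, only 55.3% to 69.1% per library lay within 0.05 of a whole multiple of the commonest low value, so read counts were not rebuilt and count models were left out. Depth estimates from that spacing are rough. Symbols altered on export were restored (404).

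Genes with a mean of at least 10 were log2-transformed after adding 1 and tested in limma 3.58.1 (eBayes with trend, R 4.3.3), adjusted over all of them by Benjamini-Hochberg. Exact permutation tests were two-sided, over all splits of 5 against 5. The procedure was tried on simulated data in which genes varied independently and few were changed. That setting differs from these libraries, so it does not show how calls behave here. Lists are described by counts and medians with no set test. The members, lists and alternatives, including leaving out A2 and A4, were chosen with earlier results of these data known. Named genes are the 8 members, complement genes past the threshold or with a mean of at least 100 in either group, copies of members, Atm, up to 4 genes per further list, and the 3 genes most like each member. Further tested complement genes and Alb were named after their values were seen, and 2 genes of the lists are not reported here by name. Shared windows of 100 bases were counted in GENCODE M21 transcripts and promoters were taken from RefSeq (GRCm38.p6); comparing proteins was not done. Python 3.11.15, pandas 2.3.3 and matplotlib 3.10.9 were used.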

Additional observations from a re-analysis of the deposited data

How the results depend on the processing

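Across 20 alternatives (pseudocount, filter, scaling, variance model, sample weights, leaving out each library, and leaving out A2 and A4 together) the falls of C1s1, C1ra and C3 kept their direction and limma adjusted p under 0.05, with C1s1 between -3.78 and -2.85, C1ra between -2.57 and -1.97 and C3 between -1.73 and -1.18. C4b became called with sample weights (-1.16, limma adjusted p = 0.0090) and without A2 and A4 (-1.64). When each library was left out in turn it ran from -1.33 (called, without A2) to -0.63. Cd55 became called without A2 and A4 (-1.93), and it had no value under a minimum mean of 50. The sign turned for Cfb without A2 and A4 (-0.065), for Serping1 without A2 and A4 (-0.46) and in the range over single libraries left out (-0.14 to 0.48), and for Cd59a after quantile normalization (0.17), none of them called. The cause was not tested. Over all genes, 3649 were higher and 4017 lower. Under quantile normalization the all-gene median was 0.15 and the split was 4514 higher and 3319 lower. The other alternatives gave 3219 to 4010 higher and 3403 to 4219 lower. No paired analysis was possible because the columns carry no sample numbers of the labels. Depth limits Cd55 most, at an estimated 1.42 to 49.8 reads per library, and then Cd59a, at 29.1 reads in A2.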
